A study of Mus musculus with 44 samples.

Results

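Of the 151817 open chromatin regions found in these cultured mouse cortical neurons, 20960 (13.8%) lay over 100 kb from the nearest end of any protein-coding gene and outside all such genes, and are called far regions here. They were chosen by position and not by their response. In each of the 44 libraries the 75000 autosomal intervals with the highest −log10 p of the peak caller were taken, overlapping intervals were merged over all libraries, and a merged region was kept when at least 2 libraries held it. Position was set by the centre of a region against the RefSeq annotation of mm10. Before the rule on libraries there were 183918 merged regions, of which 25653 were far, and 4693 of those were held by 1 library only.

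The libraries came from ATAC-seq, in which a transposase tags the DNA that it can reach, of cultured primary neurons, prepared from mouse cortex at E16.5. They form 22 groups of 2 libraries in 3 experiments, and every well, controls included, was silenced overnight with tetrodotoxin and D-AP5 before KCl and received DNase during the treatment. In the drug experiment (16 libraries), wild-type neurons at 7 days in vitro (DIV7) received FHT1015 at 100 nM, which the labels describe as blocking BAF ATPase activity, or 0.1% DMSO for 10 or 30 min, either during 50 mM KCl or without it. In the Arid2 experiment (8 libraries, DIV7), neurons carried CRISPR guides against Arid2 or non-targeting guides and were depolarized with KCl for 30 min or left unstimulated. In the Smarcc2 experiment (20 libraries, DIV18), neurons had a Smarcc2 knockout with S586A, S586E or wild-type Smarcc2 added back, the knockout with an empty vector, or non-targeting guides with the vector, each with 30 min of KCl or unstimulated. Each embryo is a replicate per the labels, but no library is tied to a named embryo, so the p-values below measure the spread between the libraries. They do not say which cells of the culture carried a guide or an added gene.

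Regulatory DNA far from genes includes enhancers, stretches that bind transcription factors and can act on promoters over long distances, and promoters of non-coding RNAs. BAF complexes (SWI/SNF) use ATP to move or evict nucleosomes. Smarcc2 is a core scaffold subunit of these complexes, and Arid2 belongs to the PBAF form. In neurons, depolarization by KCl opens calcium channels and induces first early genes, many of which encode transcription factors such as Fos and Nr4a proteins, and then late genes whose products act at synapses.

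Sequences can be shown for 2 kinds of far region, those over a microRNA hairpin and those over the promoter of a long non-coding RNA (lncRNA). The mature microRNAs below, from RefSeq, belong to the hairpins whose regions are described further on. Capitals mark the seed, bases 2 to 8, which pairs with target transcripts, and the miR-344 family, miR-134 and miR-410 lie in clusters on chromosomes 7 and 12.
miR-344-5p: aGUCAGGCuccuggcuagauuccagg
miR-344b-5p: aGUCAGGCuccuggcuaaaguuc
miR-344c-5p: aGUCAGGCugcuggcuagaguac
miR-344d-1-5p: aGUCAGGCugcuggcuauacacca
miR-344d-3-5p: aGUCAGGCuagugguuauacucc
miR-344g-5p: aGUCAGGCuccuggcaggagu
miR-344f-5p: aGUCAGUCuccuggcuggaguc
miR-344d-3p: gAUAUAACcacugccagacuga
miR-410-3p: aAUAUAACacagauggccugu
miR-137-3p: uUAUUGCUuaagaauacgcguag
miR-125b-5p: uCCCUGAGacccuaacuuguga
miR-134-5p: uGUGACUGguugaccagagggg

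The 4 promoters below lay in far regions named further on. They were chosen as 1 of the 6 highest-ranked regions and as regions that changed with FHT1015 or KCl or differed between DIV18 and DIV7 non-targeting libraries. Each runs from 250 bases before to 50 bases after the annotated start, read 5′ to 3′ on the strand of the gene, from RefSeq on GRCm38.p6. They are Gm26901 (chr1:7398047-7398346, minus strand), Gm13003 (chr4:137165017-137165316, minus strand), Gm30092 (chr4:17636142-17636441, minus strand) and Gm29998 (chr19:33391551-33391850, plus strand). Capitals mark CANNTG, the E-box that basic helix-loop-helix factors can bind. They held 1, 3, 4 and 1 of these, and none held TGANTCA or TGACGTCA, the sites known for AP-1 and for CREB, searched on both strands; none of these letter strings contains another.
Gm26901: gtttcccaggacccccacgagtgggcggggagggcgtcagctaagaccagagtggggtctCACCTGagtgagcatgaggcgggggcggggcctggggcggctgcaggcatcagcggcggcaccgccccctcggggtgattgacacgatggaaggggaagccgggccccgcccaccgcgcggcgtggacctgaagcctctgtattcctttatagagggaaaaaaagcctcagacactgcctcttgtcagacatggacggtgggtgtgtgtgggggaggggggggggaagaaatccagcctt
Gm13003: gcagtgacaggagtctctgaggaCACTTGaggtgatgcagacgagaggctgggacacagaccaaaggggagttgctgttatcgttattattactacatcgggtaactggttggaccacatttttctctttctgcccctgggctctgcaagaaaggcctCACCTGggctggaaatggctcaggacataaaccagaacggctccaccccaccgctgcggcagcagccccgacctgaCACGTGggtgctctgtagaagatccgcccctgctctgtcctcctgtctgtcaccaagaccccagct
Gm30092: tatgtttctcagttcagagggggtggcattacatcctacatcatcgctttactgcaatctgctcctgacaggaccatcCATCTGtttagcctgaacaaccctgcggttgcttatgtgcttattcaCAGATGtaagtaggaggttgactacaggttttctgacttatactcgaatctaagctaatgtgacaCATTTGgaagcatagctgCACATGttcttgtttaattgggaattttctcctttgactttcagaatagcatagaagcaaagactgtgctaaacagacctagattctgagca
Gm29998: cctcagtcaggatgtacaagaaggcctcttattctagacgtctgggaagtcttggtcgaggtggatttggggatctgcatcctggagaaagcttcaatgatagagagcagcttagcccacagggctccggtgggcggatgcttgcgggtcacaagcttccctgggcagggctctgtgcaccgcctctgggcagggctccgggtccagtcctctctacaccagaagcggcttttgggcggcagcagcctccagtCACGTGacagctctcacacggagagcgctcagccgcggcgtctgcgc

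The far regions lay 100025 to 2254630 bp from the nearest protein-coding gene, with a median of 232337 bp. Of them 12283 (58.6%) were over 200 kb away, 3604 (17.2%) over 500 kb and 838 (4.00%) over 1 Mb, and 3716 (17.7%) lay inside a non-coding gene or a pseudogene. At the limit of 100 kb, the nearest regions inside it were chr3:46340690-46340969, 100025 bp from Pabpc4l and held by 2 libraries, and chr17:50408354-50409296, 100040 bp from Plcl2 and held by 20 libraries. Just outside it were chr14:9449933-9450266, 99993 bp from Fhit (4 libraries), and chr8:115806626-115807122, 99980 bp from Maf (14 libraries). The far regions were not spread evenly: 1961 of 20665 protein-coding genes were the nearest gene to at least 1, and 398 of the 1221 gaps between genes that held any had 20 or more each and together held 14802 (70.6%). The genes nearest to the most were Adgrl2 (73 regions), which encodes an adhesion GPCR of synapses, Zfp608 (71), Pik3c3 (70), Myc (68) and Efnb2 (66), an ephrin. Among the fullest gaps were those from Arpp21 to Pdcd6ip (110 regions in 1.42 Mb), from Slc10a2 to Efnb2 (104 in 3.51 Mb), and from Tmem182 to Pou3f3, which encodes a cortical transcription factor (99 in 1.84 Mb).

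Far regions were narrower and held by fewer libraries than regions near genes. Their median width was 608 bp, against 1772 bp for the 14316 regions within 1 kb of a gene end and 687 bp for the other 116541 regions. The median far region was held by 12 of the 44 libraries, against 44 for gene ends and 15 for the others. All 44 libraries held 742 far regions (3.54%), against 59.3% of the gene-end regions and 8.43% of the others. Only the Arid2 experiment held 2187 of them (10.4%, against 4.77% of all other regions), and both DIV7 experiments but not DIV18 held 4100 (19.6%, against 9.29%). All 3 experiments held 5220 (24.9%), against 38.3% of all other regions.

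The lists hold no read counts, so depth is known only from the 135590 to 282440 intervals per library and from the background level of the peak caller, which ran from 0.942 to 8.39. It was highest in the drug experiment (2.93 to 8.39), lower at DIV18 (0.942 to 3.68) and within 1.39 to 1.80 for the Arid2 libraries. Replicates correlated at 0.934 to 0.989 in the rank score defined below. Gene ends of pan-neuronal markers were held in all 44 libraries (6 of 6 genes). Of 5 microglial markers Cx3cr1, Aif1 and Ptprc were held in no library. Of 5 vascular markers 1, Pecam1, was held in no library and 1 was held in all 44. Also held in all 44 were 4 of 5 excitatory, 1 of 5 inhibitory, 3 of 5 astrocyte, 2 of 5 oligodendrocyte and 3 of 5 progenitor markers. ATAC-seq cannot check a knockout, but the number of intervals over the Smarcc2 gene was 22 to 29 in the libraries with an added Smarcc2, 10 to 20 in the knockout with vector and 6 to 8 with non-targeting guides at DIV18. The number over the Arid2 gene was 11 to 16 in the Arid2 knockout and 12 to 15 with non-targeting guides at DIV7, so the groups overlapped.

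The rank score used from here on is log2(133009 / rank), where rank is that of the best interval over a region in a library and 133009 is the length of the shortest autosomal list. A score of 4 is rank 8313, a score of 2 is rank 33252, the last of the best 75000 intervals has a score of 0.827, and a region with no interval among the first 133009 has a score of 0. A change of 1 is thus a factor of 2 in rank, and a difference from libraries at 0 is a lower limit. Ranks compare regions inside 1 library, and one can shift when others do. Changes were tested with limma within each experiment, with Benjamini-Hochberg adjustment over all regions tested, and called at an adjusted p under 0.05. Only regions held by at least 2 libraries of a fit were tested. A region held on 1 side alone thus entered through that side, which favours a change towards it.

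Fewer far regions were among the best intervals of resting neurons after 30 min of FHT1015. Unstimulated libraries held 24.16% and 26.22% of the far regions after 30 min of FHT1015, against 42.84% and 41.73% after DMSO. After 10 min they held 37.19% and 35.67%, against 41.98% and 41.77% after DMSO. With KCl, 30 min of FHT1015 gave 38.16% and 30.31%, against 42.99% and 42.74%, and 10 min gave 43.18% and 41.86%, against 41.13% and 43.65%. Both unstimulated pairs and the 30 min KCl pair did not overlap, and the 10 min KCl pair did. Over all 8 libraries a side, the mean was 34.6% ± 7.02 with FHT1015 and 42.4% ± 0.832 with DMSO (SD, n = 8), a difference of −7.76 percentage points where replicates differed with an SD of 2.20. The size depends on what counts as held: it was −0.843 points with the best 30000 intervals, which is within that SD, and −12.8 with a cover of 50% of the region. Gene-end regions differed in the other direction, at 82.03% and 82.77% after 30 min of FHT1015 in unstimulated neurons, against 77.21% and 77.61% after DMSO. In bulk libraries, fewer cells with a region open and less opening per cell cannot be told apart. The lists also shortened: FHT1015 libraries had 177290 ± 25588 autosomal intervals and DMSO libraries 248269 ± 18286, and the part of this in the shares held was not tested.

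**Figure D1:**
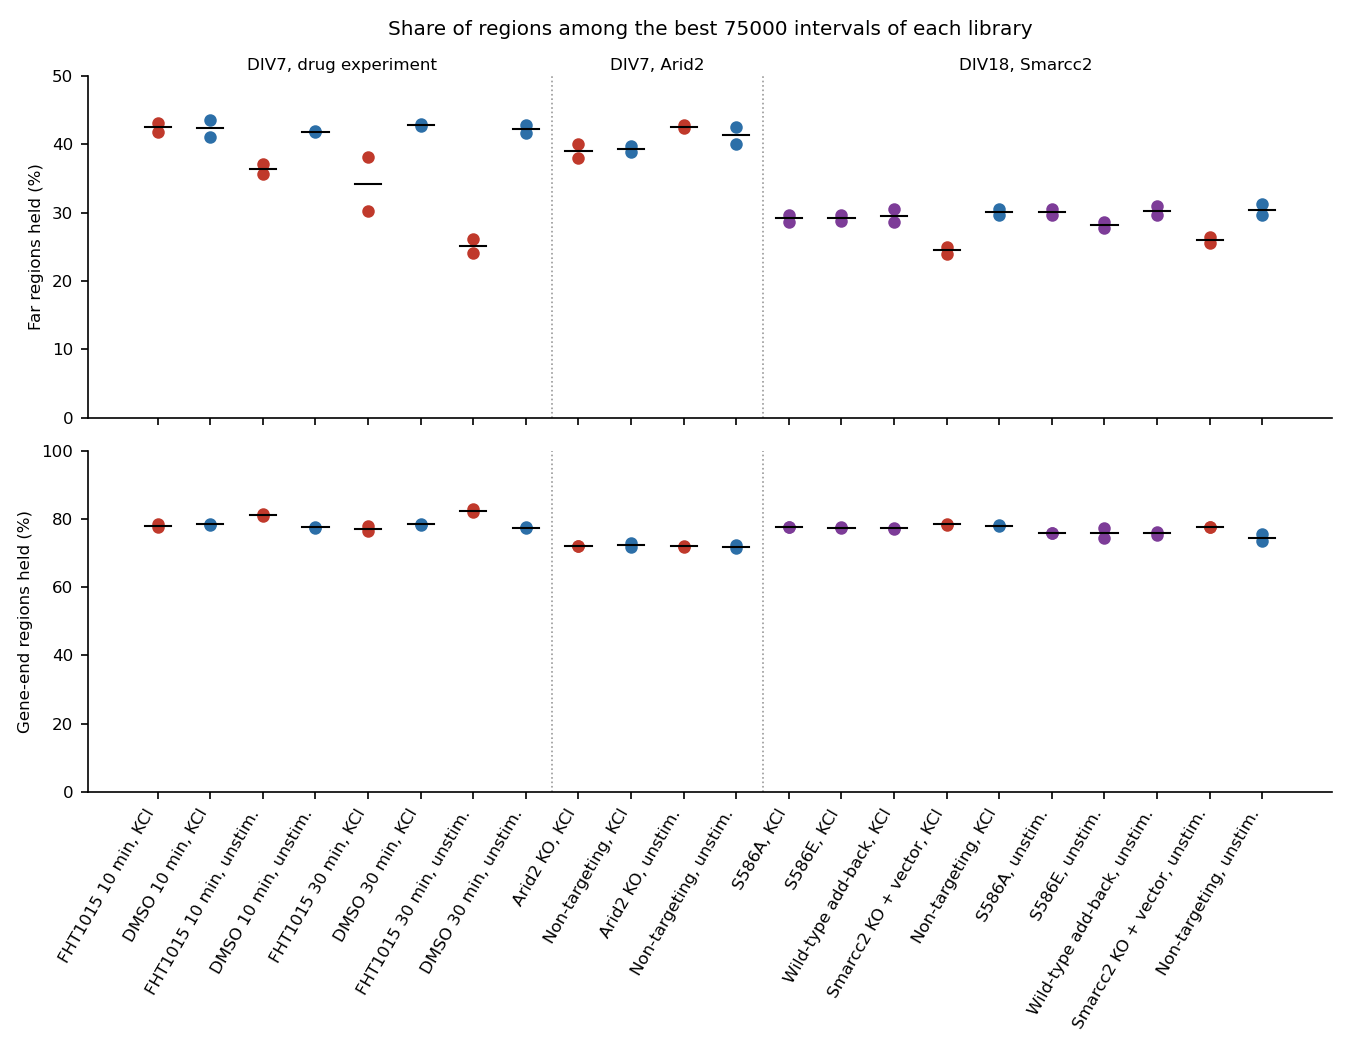
Percent of the 20960 far regions (top) and of the 14316 gene-end regions (bottom) held among the best 75000 intervals of each library; each point is a library, each line the mean of its group of 2, red marks FHT1015 or knockout, purple add-backs and blue controls. The unstimulated 30 min FHT1015 libraries held 24.16% and 26.22% of the far regions, the lowest in the drug experiment, and the DIV18 libraries lay below both DIV7 control sets.

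The single regions showed the same direction. At 30 min without KCl, 697 far regions (3.33%) were held by both FHT1015 libraries and neither DMSO library, and 3279 (15.6%) by both DMSO libraries and neither FHT1015 library, against 6.52% and 11.4% of all other regions. In rank score over all 16 libraries, 2292 of 12797 far regions tested rose with FHT1015 and 6605 fell (17.9% and 51.6%). Among all 97487 regions tested, 31.4% rose and 43.4% fell, and among gene-end regions 40.7% rose and 20.8% fell. The median change was −0.27 for far regions and −0.13 for all. With the number of intervals per library as a covariate, 266 far regions rose and 188 fell, and the medians were −0.04 for far regions and 0.04 for all. Drug and list length cannot be told apart in these libraries.

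The 4 pairs of groups differed in how many far regions were called. In unstimulated neurons at 30 min, 1891 far regions rose and 7081 fell (14.8% and 55.3%), where 28.6% and 42.5% of all regions did, and the median was −0.60 against −0.26 for all. With the interval number of each library as covariate, 467 rose and 494 fell. At 10 min, 1180 rose and 2767 fell (9.22% and 21.6%), where 18.4% and 19.5% of all did. That pair gave 395 up and 5209 down when each summit was ranked on its own, none with the covariate, and a called share of 16.2% to 18.3%, against 30.8%, when 1 of its 4 libraries was left out. With KCl, 1540 rose and 3825 fell at 30 min (12% and 29.9%), against 18% and 28.1% of all. At 10 min with KCl 79 rose and 332 fell (0.617% and 2.59%), against 0.969% and 3.09% of all regions, and the called share of 3.21% was 0.117% to 0.977% without 1 of its 4 libraries. Far regions nearest to the limit fell most often: over all 16 libraries 54.7% of those 100 to 200 kb from genes, 51.9% of those at 200 to 500 kb and 42.9% of those over 500 kb fell.

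Here and in the comparisons below, the largest change is taken among far regions that were called, kept their sign when each summit was ranked on its own and had groups that did not overlap. With FHT1015 the largest fall was at chr13:51290673-51291442, between Nxnl2 (116 kb) and S1pr3 (118 kb), which encodes a sphingosine-1-phosphate receptor. Its rank score was 0.47 at the lowest, 1.11 at the median and 1.72 at the highest in the 8 FHT1015 libraries, against 2.43, 3.00 and 3.28 in the 8 DMSO libraries. The groups did not overlap, and the change was −1.85 ± 0.085 (SE, limma adjusted p = 3.5e-09), with a fall of at least 1.49 in each of the 4 pairs of groups. Regions near Nphp4 (chr4:152725307-152726424; 0 to 1.62 with FHT1015, 2.07 to 2.65 with DMSO) and near Fgfr2, a fibroblast growth factor receptor (chr7:129939231-129939800; 0 to 1.19 with FHT1015, 1.47 to 2.48 with DMSO), fell by 1.61 and 1.59.

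The largest rise was at chr15:56382800-56383261, 283 kb from Has2, which encodes a hyaluronan synthase. It had 0.93, 1.21 and 2.37 (lowest, median, highest) in the 8 FHT1015 libraries, all of which held it. In the 8 DMSO libraries it had 0 to 0.12, and none held it. It was held by 8 libraries of the 44 in all, so it entered the test through FHT1015 libraries alone, which favours a rise. The change was 1.40 ± 0.092 (limma adjusted p = 3e-08), and it was largest at 30 min in unstimulated neurons, where the scores were 2.37 and 2.11, against 0 in both DMSO libraries. Regions near Topaz1 (chr9:122621109-122621928) and Sfswap (chr5:129386316-129386694) rose by 1.24 and 1.18, but neither these nor the Nphp4 region were called with the interval number of each library as covariate. The Has2, S1pr3 and Fgfr2 regions were.

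Far regions were also counted by the lists their nearest gene belongs to. The early activity genes had 114 far regions at 7 of 31 genes, among them Klf4 (39), Gadd45g (27), Nr4a3 (15) and Dusp6 (15). Of the 58 tested, 4 rose and 45 fell with FHT1015 over all 16 libraries (6.90% and 77.6%, median −0.46), with 1 and 16 of 21 at Klf4, 0 and 13 of 14 at Gadd45g and 2 and 7 of 9 at Dusp6. The highest-ranked were a region in the lncRNA Junos 109 kb from Jun, a subunit of AP-1, with a change of −0.45, a region 119 kb from Klf4, with −0.23, and a region 306 kb from Gadd45g, with −0.68. The Gadd45g region (chr13:52153560-52155981) had 3.54, 3.96 and 4.35 (lowest, median, highest) with FHT1015, against 4.32, 4.63 and 4.86 with DMSO, so the groups just overlapped. Of 43 regions by late activity genes, 3 rose and 22 fell. Of 451 by forebrain transcription factors, 67 rose and 219 fell (14.9% and 48.6%). Of 728 by genes for adhesion and synaptic organizers, 133 rose and 315 fell (18.3% and 43.3%). Of 32 by interneuron factors 4 rose and 17 fell, of 90 by astrocyte and progenitor genes 21 and 44, of 41 by vascular, meningeal and immune genes 10 and 20, and of 4 by oligodendrocyte genes 1 and 1, beside 17.9% and 51.6% of all far regions tested. Summed over gene ends of cell type markers, excitatory markers had 16.03 to 16.71 with FHT1015 and 14.0 to 15.4 with DMSO, progenitor markers 16.3 to 19.1 and 15.7 to 18.3, astrocyte markers 12.3 to 13.8 and 13.05 to 13.91, and oligodendrocyte markers 13.7 to 16.9 and 15.9 to 17.3. At 30 min without KCl, where the most far regions fell, inhibitory markers had 15.49 to 15.62 with FHT1015 and 12.25 to 12.59 with DMSO, and pan-neuronal markers 25.7 to 26.4 and 27.2 to 27.8. In that pair the groups did not overlap for any list except the astrocyte and microglial ones. The part of the markers in the counts was not tested.

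**Figure D2:**
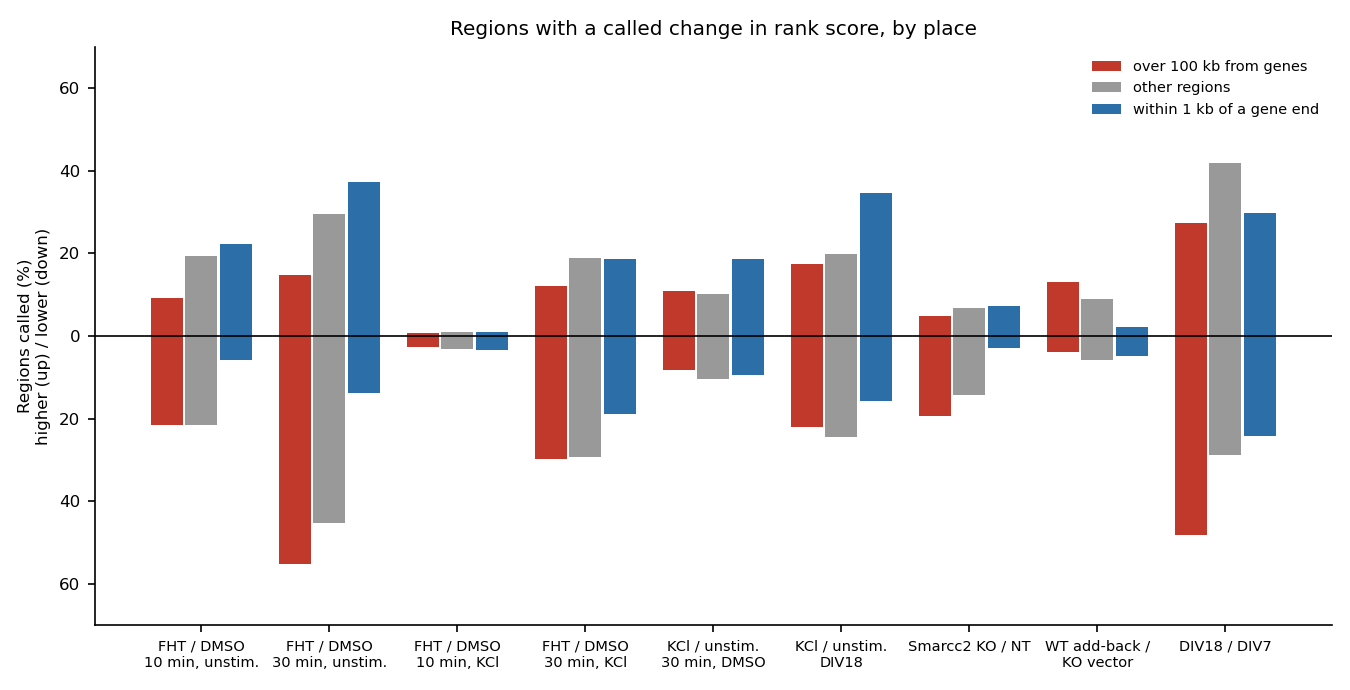
Percent of regions tested whose rank score was called higher (upward bars) or lower (downward bars) in each of 9 comparisons, for far regions (red), other regions (grey) and gene-end regions (blue). Far regions fell more often than gene-end regions with FHT1015 at 30 min in unstimulated neurons (55.3% and 13.9%) and in the Smarcc2 knockout (19.3% and 3.0%).

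Far regions moved in both directions with KCl. In DMSO, 1409 of 12797 rose and 1068 fell after 30 min (11% and 8.35%), where 11.4% and 10% of all regions did so. After 10 min, 167 rose and 97 fell, against 1.88% and 1.15% of all. The share held hardly differed, with a change of 0.582 percentage points at 30 min (SD between replicates 0.570) and 0.515 at 10 min (SD 1.26). When each summit was ranked on its own the balance turned, with 1016 up and 2870 down at 30 min and 168 up and 1529 down at 10 min. Without 1 library at 10 min, the counts also turned: 7 rose and 9 fell without replicate 2 of unstimulated DMSO, and the called share, 2.06% with all 4, lay between 0.125% and 0.375% without any 1 of them. At 30 min it was 19.4% with all 4 and 8.60% to 12.6% without any 1. At 30 min, 908 far regions were held by both KCl libraries and neither unstimulated one and 681 the other way round (4.33% and 3.25%), against 2.98% and 2.84% of all other regions. Marker sums moved with KCl too: at 30 min in DMSO, vascular markers had 9.92 to 10.39 with KCl and 7.69 to 7.85 without, and inhibitory markers 13.4 to 14.2 and 12.3 to 12.6. The groups did not overlap for any list except the oligodendrocyte and microglial ones. The part of the markers was not tested.

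The largest rise with KCl by the rule for named regions was, in all 3 experiments, at chr4:47603145-47604704, in the lncRNA gene Gm32487, 121 kb from Sec61b and 441 kb from Nr4a3, an early activity gene for an orphan nuclear receptor. Sec61b is thus the nearest protein-coding gene. This region is called the Nr4a3 region below as a label only, and its target gene was not tested. In DMSO its score was 3.44 and 3.57 after 30 min of KCl, against 0.56 and 0.93 in unstimulated neurons, a change of 2.76 ± 0.21 (limma adjusted p = 3.4e-06). After 10 min it was 2.96 and 2.51, against 1.13 and 1.48 (1.43 ± 0.21, limma adjusted p = 0.0037). All KCl values lay above all unstimulated ones. With non-targeting guides at DIV7 it was 5.75 and 6.11 with KCl, against 2.48 and 2.05 without (3.66 ± 0.25, limma adjusted p = 2.7e-11), and in the Arid2 knockout 5.92 and 5.28, against 2.30 and 2.86. At DIV18 the 10 KCl libraries had 3.27, 3.86 and 4.02 (lowest, median, highest) and the 10 unstimulated ones 0.74, 1.32 and 1.89 (2.44 ± 0.15, limma adjusted p = 1.5e-13). With the drug the depolarized level was lower: 30 min of FHT1015 with KCl gave 2.09 and 2.51, against 3.44 and 3.57 with DMSO and KCl (−1.20 ± 0.21, limma adjusted p = 0.00032). Without KCl, FHT1015 gave 0.83 and 0.64, which overlapped the DMSO values. The rise with KCl was smaller with FHT1015 by 1.19 ± 0.29 (limma adjusted p = 0.0071). Its rises with KCl were called with the interval number of each library as covariate too.

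**Figure D3:**
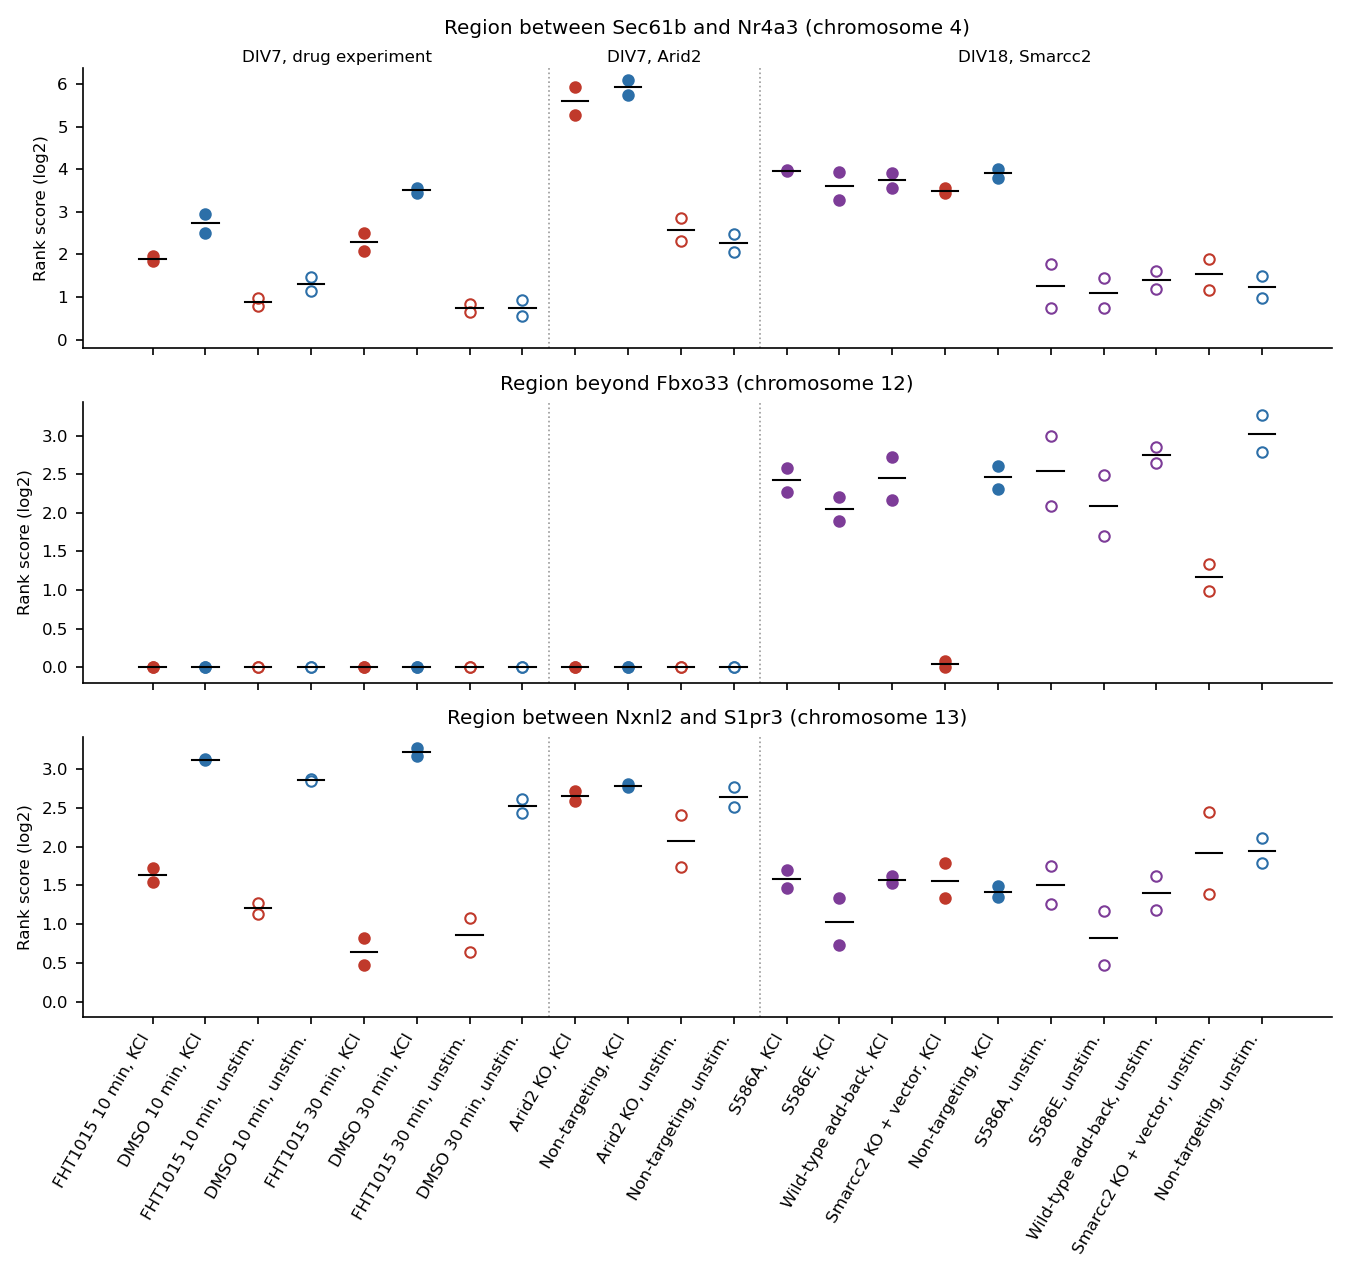
Rank score of 3 far regions in every library, by group; filled points are KCl and open points unstimulated libraries, red marks FHT1015 or knockout, purple add-backs and blue controls. The region 441 kb from Nr4a3 had 3.44 and 3.57 with KCl, against 0.56 and 0.93 without, in 30 min DMSO; the region 491 kb from Fbxo33 was at 0 in all DIV7 libraries; the region 118 kb from S1pr3 lay lower in every FHT1015 library than in any DMSO library.

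Other far regions that rose with KCl lay between Cdh6 and Cdh9, which encode cadherins (chr15:13384676-13385235; 2.46 and 2.46 after 30 min of KCl in DMSO, against 0.28 and 0), and between Tmem161b and Ccnh (chr13:84749124-84749881; 1.97 and 2.13, against 0 and 0). They rose by 2.32 ± 0.19 and 2.05 ± 0.23 (limma adjusted p = 5.7e-06 and 6.8e-05). Among those that fell was chr10:99524584-99525168, 233 kb from Csl and 257 kb from Dusp6, a phosphatase gene of the ERK pathway, at 0 in both KCl libraries, against 1.68 and 1.86 (−1.77 ± 0.19, limma adjusted p = 4.2e-05). A region between Spring1 and Med13l (chr5:118388260-118389003) had 0.03 and 0.72, against 2.04 and 2.19 (−1.74 ± 0.26, limma adjusted p = 0.00043). A region on chromosome 1 (chr1:117243223-117244269) fell by 1.66. At 10 min, regions near Tmem132e and Npr3 rose by 1.29 and 1.18, and regions near Prdm2, near Slc39a10 and the Spring1 region fell by 1.10, 1.20 and 1.22. Without 1 of 4 libraries, the Tmem132e region and the Nr4a3 region stayed called each time, the Npr3 region 2 times, the Spring1 region 1 time and the remaining ones never.

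With non-targeting guides at DIV7, 41 far regions rose with KCl and 9 fell, of 11773 tested, where 0.512% and 0.092% of all 80397 regions did. Only 4 libraries enter this comparison, and without 1 of them the called share, 0.425%, lay between 0.0340% and 0.153%. Besides the Nr4a3 region, chr6:4396462-4398584, 108 kb from the collagen gene Col1a2, had 4.54 and 3.97 with KCl, against 1.81 and 1.16 without, and stayed called each time (2.77 ± 0.30, limma adjusted p = 9.8e-07). The Cdh6 region had 2.95 and 2.17, against 0 and 0.28, and stayed called in 2 of 4. The largest falls, near Igfbp3 (−2.22), Tbl1xr1 (−2.07) and Etaa1 (−1.96), were called in none. Of the rises that could be tested at DIV18 too, 20 of 23 rose there, where 19.5% of the 5731 regions tested in both did. Of those tested in the drug experiment, 27 of 37 rose in 30 min DMSO, where 8.59% of 7533 did. Here too vascular marker sums, at 6.20 to 6.69 with KCl and 3.87 to 4.80 without, and inhibitory ones, at 16.5 to 16.8 and 14.1 to 14.3, did not overlap, and the progenitor list was the one that did. Their part was not tested.

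At DIV18, with 10 libraries a side, 1801 of 10348 far regions rose with KCl and 2290 fell (17.4% and 22.1%), where 21.5% and 23.1% of all 101433 regions did. When each summit was ranked on its own, 1000 far regions rose and 3405 fell. Of gene-end regions 34.7% rose and 15.8% fell. The share of far regions held was 28.5% ± 2.22 with KCl and 29.0% ± 1.89 without (SD, n = 10). A region 170 kb from Atp2b1, which encodes a plasma membrane calcium pump (chr10:98743879-98744554), had 1.21 to 2.65 in the 10 KCl libraries and 0 in the 10 unstimulated ones and in every DIV7 library, depolarized ones included (2.03 ± 0.17, limma adjusted p = 1.7e-10). It entered the test through the KCl libraries alone, which favours a rise. One 225 kb from Cntn3, a contactin gene (chr6:101937291-101939126), had 2.40 to 3.28, against 0.45 to 1.68 (1.89 ± 0.15, limma adjusted p = 8e-11). The largest falls were 2 regions between Eipr1 and Myt1l, a neuronal zinc finger factor, at chr12:29014819-29016321 (0.63 to 1.34 with KCl, 2.17 to 3.73 without; −1.68) and chr12:29348308-29349663 (0.11 to 1.67 with KCl, 1.81 to 3.32 without; −1.58), and 1 near Tusc1 (−1.39). By lists, 21 of 68 regions by early activity genes rose and 10 fell (30.9% and 14.7%), and 12 of 33 by late activity genes rose and 3 fell (36.4% and 9.09%), while 55 of 446 by adhesion and synaptic organizer genes rose and 107 fell (12.3% and 24.0%). At Gadd45g 9 of 20 rose and 2 fell, at Dusp6 6 of 10 rose and none fell, and at Nr4a3 3 of 7 rose and 1 fell. At Klf4 3 of 22 rose and 5 fell, at Jun 0 of 7 rose and 1 fell, and at Nr4a2 0 of 2 rose and 1 fell. Summed vascular markers had 4.70 to 5.90 in the 10 KCl libraries and 2.08 to 3.93 in the 10 unstimulated ones, and their part was not tested.

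The responses to KCl at DIV7 and DIV18 shared no library. Of 5228 far regions tested in both, 475 rose with 30 min of KCl in DMSO and 1118 at DIV18. They shared 321, which are 67.6% of the first set and 28.7% of the second, where 21.4% of all those tested rose at DIV18. Of 570 and 996 that fell, 276 were shared (48.4% and 27.7%), where 19.1% of all those tested fell at DIV18 and 10.9% in DMSO. Opposite calls were 10 that rose in DMSO and fell at DIV18 (2.11% of the DMSO rises). Another 22 fell in DMSO and rose at DIV18 (3.86% of the DMSO falls).

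The response to KCl was also compared between FHT1015 and DMSO. The response at 30 min with FHT1015 minus that in DMSO was higher in 2723 and lower in 975 of 12797 far regions (21.3% and 7.62%), where 15.7% and 11.9% of all regions and 3.3% and 17.3% of gene-end regions were. The median difference was 0.24 for far regions and 0.02 for all. This comparison shares its libraries with those above, among them the unstimulated FHT1015 pair that held the fewest far regions. The largest was at chr3:4196601-4197057, between Hnf4g and Zfhx4, where FHT1015 gave 2.18 and 2.58 with KCl and 0 and 0 without, and DMSO 1.44 and 1.38 with KCl and 2.75 and 1.69 without. At chr16:62440807-62441797, 291 kb from Nsun3, FHT1015 gave 2.04 and 1.98 with KCl and 0.49 and 0 without, and DMSO 0.78 and 0.84 with KCl and 2.03 and 2.15 without. With KCl both were thus higher under the drug and lower in DMSO in these libraries, and the difference passed the test (3.19 ± 0.42 and 3.05 ± 0.25, limma adjusted p = 0.00015 and 1.1e-05). The largest the other way was at chr5:42660973-42661262, where FHT1015 gave 0.42 and 0 with KCl and 1.82 and 1.40 without, and DMSO 1.08 and 0.64 with KCl and 0.09 and 0 without (−2.22 ± 0.32, limma adjusted p = 0.00025).

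At DIV18 fewer far regions were held in the Smarcc2 knockout. The knockout with vector held 25.05% and 24.00% with KCl and 26.47% and 25.57% unstimulated, while non-targeting libraries held 30.49% and 29.64% with KCl and 31.25% and 29.62% unstimulated. The groups did not overlap in either state, and the difference was −4.97 percentage points (SD between replicates 0.813). It was −1.54 with the best 30000 intervals and −7.53 with a cover of 50%. Of 10348 far regions tested, 491 rose and 1996 fell in the knockout (4.74% and 19.3%), where 6.64% and 13.3% of all regions and 7.2% and 3.0% of gene-end regions did. The median was −0.23 for far regions and −0.03 for all. The knockout libraries had 188302 autosomal intervals on average and the non-targeting ones 231623. With that number as a covariate, 286 rose and 1330 fell. The called share was 24.0%, and fell to 13.9% and 13.4% without replicate 1 of the unstimulated and KCl non-targeting libraries, to 15.6% without replicate 2 of the KCl non-targeting libraries, and to 14.2% and 14.6% without replicate 2 of the unstimulated and KCl knockout libraries. Regions farther from genes fell more often: 17.3% at 100 to 200 kb, 20.2% at 200 to 500 kb and 23.2% over 500 kb.

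The largest fall was at chr12:59713170-59713742, 491 kb from Fbxo33. Its score was 0.07 and 0 with KCl and 0.99 and 1.34 unstimulated in the knockout with vector, against 2.60 and 2.31 with KCl and 3.27 and 2.78 unstimulated with non-targeting guides (−2.14 ± 0.24, limma adjusted p = 1.2e-06). It was at 0 in all 24 DIV7 libraries. Wild-type Smarcc2 gave 2.72 and 2.17 with KCl and 2.85 and 2.64 unstimulated, S586A 2.58 and 2.27 with KCl and 2.99 and 2.09 unstimulated, and S586E 1.90 and 2.21 with KCl and 2.49 and 1.698 unstimulated. The knockout values chose the region, so the add-back values are a description. Regions between Meis2 and Tmco5 (chr2:116718448-116719306; 0 to 1.31 in the knockout, 1.97 to 2.98 with non-targeting guides) and near Grik3, a kainate receptor gene (chr4:125333341-125334211; 0 to 0.33 and 1.98 to 2.13), both fell by 1.94. Among those that rose were a region between Tox and Car8 (chr4:7580358-7581484; 2.33 to 3.30 and 0.70 to 1.95; 1.56 ± 0.25, limma adjusted p = 0.00013) and chr15:74000408-74001499 (1.25 to 3.35 and 0.69 to 1.09; 1.52). A region at chr2:98664830-98665288 had the largest rise, 1.68, but it lies in a stretch of high signal known from many data sets and its value is uncertain.

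With wild-type Smarcc2 added back, 1365 far regions rose and 409 fell relative to the knockout with vector (13.2% and 3.95%), where 8.48% and 5.56% of all regions did. Both comparisons use the same 4 knockout libraries, so their values are given side by side. Without single knockout or wild-type libraries the called share, 17.1%, fell to 8.93% at the lowest (replicate 1 of wild-type with KCl) and by over 1.5 times also without replicate 1 of unstimulated wild-type (10.4%) and replicate 2 of the unstimulated and KCl knockout (10.4% and 9.31%). The Fbxo33 region rose by 2.00 ± 0.24, and a region between Gfra2 and Gm9195 (chr14:71728299-71729198), at 2.06 to 3.61 with wild-type Smarcc2 and 0.43 to 1.41 with vector, rose by 1.96 ± 0.21 (limma adjusted p = 1.1e-06). One near Nectin3, a cell adhesion gene, rose by 1.94. Regions near Terf2ip and Nbea fell by 1.51 and 1.41.

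The 1996 far regions lower in the knockout were followed through the add-backs. The knockout and non-targeting values chose the set and are given as a description. With KCl, S586A libraries held 76.10% and 71.64% of the set, S586E 71.44% and 69.89%, wild-type Smarcc2 77.25% and 68.89%, the knockout with vector 37.22% and 34.07%, and non-targeting guides 84.02% and 80.26%. Unstimulated, S586A held 80.81% and 78.26%, S586E 70.59% and 65.58%, wild-type 79.26% and 74.80%, the knockout 46.74% and 41.73%, and non-targeting 91.28% and 86.12%. A place between those groups follows from the choice of the set. Between the add-backs, S586E lay below wild-type in the unstimulated libraries without overlap, while with KCl the groups overlapped. The same held over all far regions, of which unstimulated S586E libraries held 28.67% and 27.74% and wild-type ones 30.94% and 29.65%. These S586E libraries also had the lowest correlation between replicates (0.934). Region by region, no far region was called between S586A and wild-type Smarcc2 by limma (531 of 10348 at an unadjusted p under 0.05), where 0.0177% of all regions rose and 0% fell.

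Between S586E and wild-type Smarcc2, 2 far regions rose and none fell, where 0.0217% and 0.00197% of all regions did, and 719 far regions had an unadjusted p under 0.05. These 2, which are named because they are the only ones, lay 185 kb from Rergl (chr6:139307581-139308208; S586E 1.52 and 2.41 with KCl and 1.53 and 1.87 unstimulated, wild-type 0.44 and 0 with KCl and 0.32 and 1.25 unstimulated) and 588 kb from Sall1, a zinc finger factor gene (chr8:89631709-89632696; S586E 1.02 and 1.06 with KCl and 1.52 and 1.28 unstimulated, wild-type 0 and 0 with KCl and 0 and 0.37 unstimulated). The changes were 1.33 ± 0.24 and 1.13 ± 0.18 (limma adjusted p = 0.028 and 0.019). Each stayed called in 4 of 8 fits without a library.

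**Figure D4:**
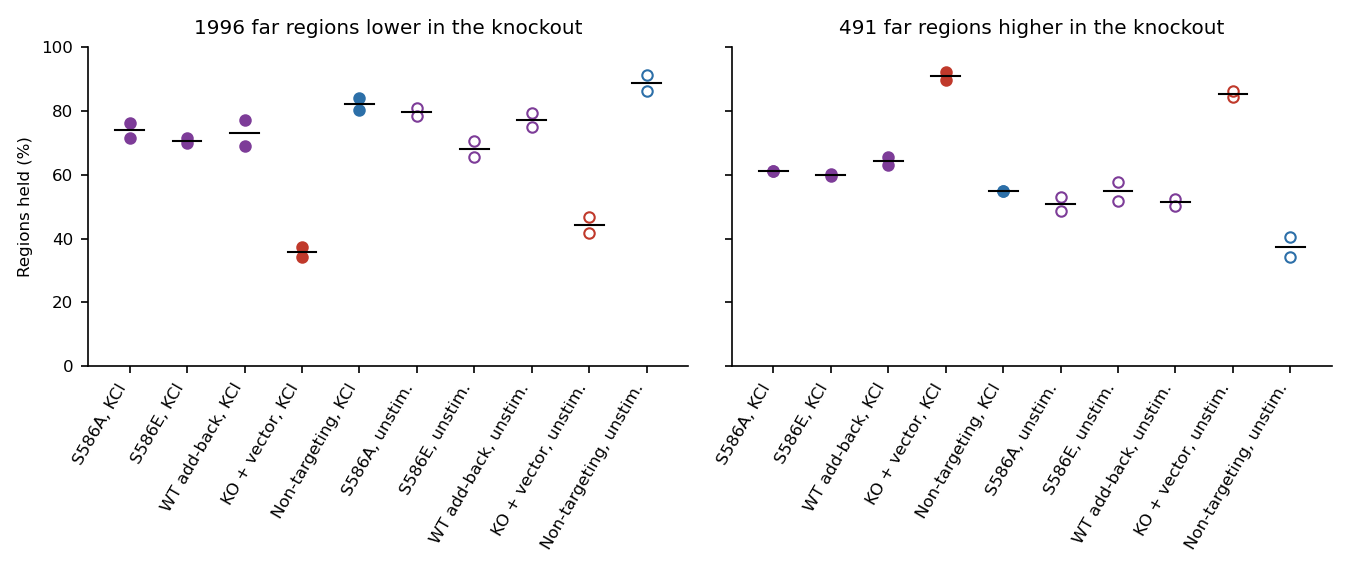
Percent of the 1996 far regions lower in the Smarcc2 knockout (left) and of the 491 higher in it (right) held in each DIV18 library; points are libraries and lines the mean of each group of 2, filled for KCl and open for unstimulated, red for the knockout with vector, purple for add-backs and blue for non-targeting. Knockout and non-targeting values chose the sets; the add-backs held 65.58% to 80.81% of the left set.

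By nearest gene, 17 of 446 regions by adhesion and synaptic organizer genes rose in the knockout and 122 fell (3.81% and 27.4%), and 12 of 312 by forebrain transcription factors rose and 53 fell (3.85% and 17.0%), where 4.74% and 19.3% of all far regions and 6.64% and 13.3% of all regions did. Of 68 by early activity genes 1 rose and 15 fell, of 33 by late activity genes 0 and 4, of 21 by interneuron factors 1 and 8, of 72 by astrocyte and progenitor genes 6 and 10, of 48 by vascular, meningeal and immune genes 1 and 11, and of 3 by an oligodendrocyte gene none. With wild-type Smarcc2 added back, 71 rose and 9 fell by adhesion and synaptic organizer genes, 45 and 9 by forebrain factors, and 8 and 0 by interneuron factors, where 13.2% and 3.95% of all far regions did. Excitatory marker sums were 16.2 to 18.0 in the knockout and 14.6 to 16.5 with non-targeting guides, and inhibitory ones 3.7 to 11.3 and 5.2 to 8.8. Oligodendrocyte marker sums, at 9.23 to 10.16 in the knockout and 6.91 to 9.22 with non-targeting guides, were the one list whose groups did not overlap. The part of these markers was not tested.

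The drug and the knockout were read in separate experiments with no library in common. Of 5228 far regions tested in both, 2836 fell after 30 min of FHT1015 in unstimulated neurons and 786 in the knockout. They shared 608, which are 21.4% of the first set and 77.4% of the second, where 54.2% of all those tested fell with FHT1015. Of 979 and 414 that rose, 235 were shared (24.0% and 56.8%), where 18.7% of all rose with FHT1015. The opposite calls were 14 that rose with the drug and fell in the knockout (1.78% of the knockout falls). Another 80 fell with the drug and rose in the knockout (19.3% of the knockout rises). FHT1015 and knockout libraries both had shorter lists on average than their controls. Most FHT1015 calls at 30 min in unstimulated neurons were lost with the interval number as covariate, as given above. The part of list length in the shared calls was not tested.

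In the Arid2 knockout no far region was called by limma, of 11773 tested, and 0% of all 80397 regions rose or fell. With 4 libraries a side, the lack of calls does not show that nothing changed. At an unadjusted p under 0.05 there were 557 far regions and 4025 of all. The knockout libraries held 40.8% ± 2.20 of the far regions and the non-targeting ones 40.3% ± 1.55 (SD, n = 4).

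Far regions were held less often at DIV18 than at DIV7. Non-targeting libraries held 30.2% ± 0.78 at DIV18 and 40.3% ± 1.55 at DIV7 (SD, n = 4), a difference of −10.1 percentage points (SD between replicates 1.11). It was −1.26 points with a cover of 50% of the region, near that SD, and −4.89 with the best 30000 intervals. In rank score 3421 of 12520 far regions were higher and 6028 lower (27.3% and 48.1%), while 38.6% and 30.8% of all 97850 regions were. The median was −0.57 for far regions and 0.14 for all. The lower share grew with distance, from 44.1% of those at 100 to 200 kb through 48.8% at 200 to 500 kb to 56.7% over 500 kb. Day and experiment cannot be told apart here, since the libraries of the 2 ages come from different experiments with different depth, and no far region stayed called with the interval number of each library as covariate (231623 on average at DIV18 and 162148 at DIV7). The same 4 DIV18 libraries were also set against the 8 DMSO libraries at DIV7, which the fit did not use. Since these DIV18 libraries chose the regions, the 2 comparisons share them and are not independent. Of the 6028 lower regions 4983 (82.7%) were lower at DIV18 than in those libraries too, and 3144 (52.2%) without overlap, where 52.8% of all far regions tested were lower and 30.5% without overlap. Of the 3421 higher ones 3123 (91.3%) were higher there too, and 1874 (54.8%) were at 0 in all 8, where 44.2% of all far regions tested were higher and 22.7% at 0 in all 8.

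The largest rise was at chr10:16588956-16590121, 1134 kb from Cited2, a gene for a transcriptional coregulator, with 4.11 and 4.25 with KCl and 4.91 and 4.37 unstimulated at DIV18, against 0 and 0.73 with KCl and 0.17 and 0.97 unstimulated at DIV7. It was at 0 in all 16 drug libraries (3.94 ± 0.25, limma adjusted p = 2.1e-05). Regions near Cntnap4, a synaptic contactin-associated gene (3.44 to 4.52 against 0 to 0.38), and near Trib1 (3.87 to 4.76 against 0 to 1.10) rose by 3.79 and 3.72. A region 145 kb from Fst, which encodes follistatin (chr13:114603188-114604872), had 0 to 0.86 at DIV18, against 5.71 to 6.05 at DIV7 with non-targeting guides and 3.34 to 3.95 in the drug experiment (−5.47 ± 0.25, limma adjusted p = 1.1e-05). The largest fall, −9.40 near Dsel (chr1:112457455-112457708), rests on the Arid2 experiment alone: the score there was 8.68 to 10.00 with non-targeting guides and 0 in all 36 libraries of the other experiments.

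By nearest gene, 157 of 702 regions by adhesion and synaptic organizer genes were higher at DIV18 and 397 lower (22.4% and 56.6%, median −0.77), and 100 of 356 by forebrain transcription factors were higher and 175 lower. Of all far regions tested 27.3% were higher and 48.1% lower. Interneuron factors had 5 higher and 17 lower of 25. Early activity genes had 25 and 27 of 75, late ones 13 and 17 of 42, astrocyte and progenitor genes 26 and 33 of 80, and vascular, meningeal and immune genes 17 and 21 of 47. Marker sums at gene ends were 14.6 to 16.5 at DIV18 and 20.1 to 20.5 at DIV7 for excitatory neurons, 5.2 to 8.8 and 14.1 to 16.8 for inhibitory neurons, 11.8 to 13.3 and 10.2 to 12.2 for astrocytes, and 25.4 to 29.2 and 29.5 to 30.7 for pan-neuronal markers. Their part in the result was not tested.

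Of the 1005 hairpins in the RefSeq table, 45 lay in 28 far regions, and the microRNAs shown above come from some of these. The miR-344 cluster on chromosome 7 spans 402187 bp between Gm51483 and the imprinted gene Ndn, and its 10 hairpins lay in 10 far regions. Its members are related copies that differ in sequence, except that Mir344 and Mir344-2 have the same mature sequences. Mir344d-1, Mir344d-2 and Mir344d-3 also have the same mature 3p sequence. Reads may be shared between members, so the single values are uncertain. Of the 10 regions 9 were higher at DIV18 than at DIV7 and none lower (range −0.57 to 2.53, median 1.07), where 38.6% of all regions and 27.3% of far regions were higher. The one not called was Mir344f. At DIV18, 9 rose with KCl and none fell (0.09 to 1.43, median 0.65), where 21.5% of all regions and 17.4% of far regions rose. Mir344 was the one not called. In DMSO at 30 min, 2 of 9 rose with KCl, where 11.4% of all regions did. Of the mature 5p arms 6, from 7 of the hairpins, share the seed GUCAGGC, while miR-344f-5p and miR-344d-2-5p differ in it.

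The region of Mir344c was held by all 44 libraries, with 4.90 and 4.67 with KCl and 4.596 and 4.302 unstimulated at DIV18 with non-targeting guides, against 4.00 and 3.55, and 3.96 and 4.12, at DIV7. Mir344d-1 had 3.11 and 3.36 with KCl at DIV18, against 1.55 and 2.29 unstimulated, and 2.60 and 2.23 with KCl in 30 min DMSO, against 0.91 and 1.21 unstimulated (1.36 ± 0.21, limma adjusted p = 0.00048). Mir344i had 2.60 and 3.01 with KCl and 1.85 and 2.65 unstimulated at DIV18, against 0 in all 8 libraries of the Arid2 experiment and 0.14 to 1.80 in the drug experiment. With FHT1015 1 of 9 tested rose and 2 fell (−0.17 to 0.34), where 31.4% and 43.4% of all regions did. In the Smarcc2 knockout 1 rose, where 6.64% of all did, and with wild-type Smarcc2 added back 4 fell, where 5.56% of all did.

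**Figure D5:**
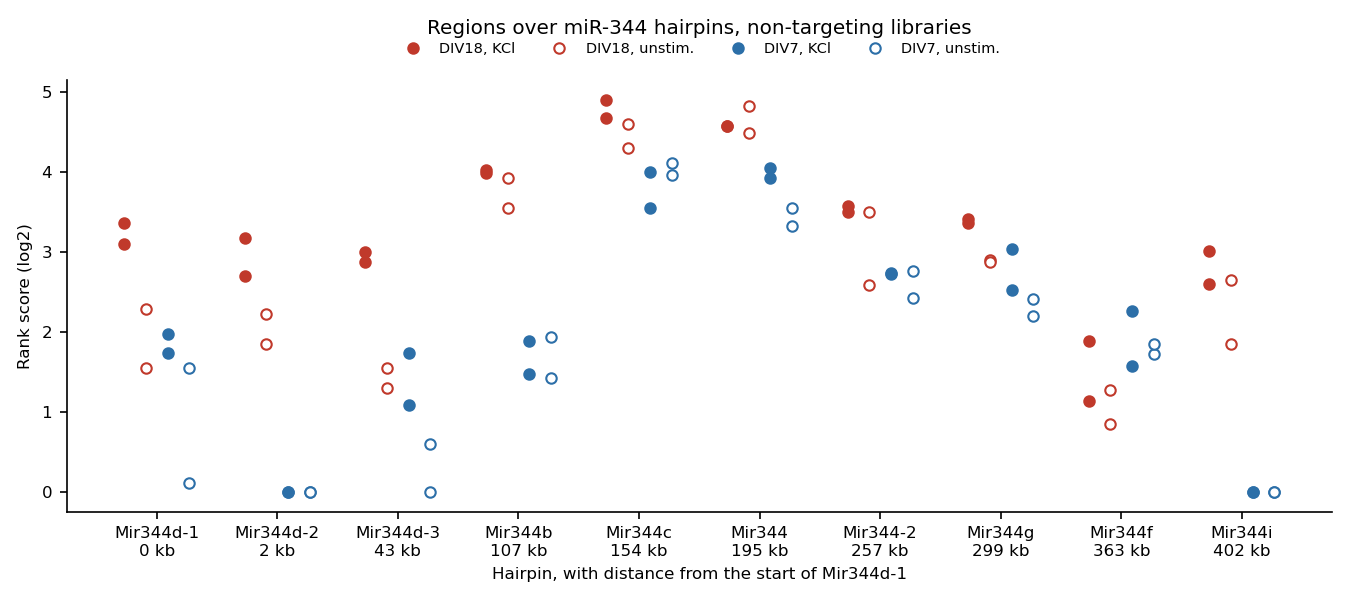
Rank score over the 10 miR-344 hairpins in non-targeting libraries, in order of distance in kb from the start of Mir344d-1; points are libraries, red for DIV18 and blue for DIV7, filled for KCl and open for unstimulated. Mir344i was at 0 in the 4 DIV7 libraries and at 1.85 to 3.01 in the 4 DIV18 libraries.

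The miR-379 to miR-410 cluster on chromosome 12, in the imprinted Dlk1-Dio3 domain near Rtl1, spans 34736 bp, and 25 of its hairpins lay in 9 far regions. All 6 of its tested regions rose with FHT1015 over 16 libraries (0.32 to 1.06), where 31.4% of all regions and 17.9% of far regions did. At 30 min 5 of 6 rose both with KCl and without. Of all regions 18% and 28.6% did so, and of far regions 12% and 14.8%. Drug and list length cannot be told apart here either. Regions that entered the test through FHT1015 libraries alone favour a rise, and their part in these counts was not tested. In the Smarcc2 knockout 3 of 7 rose and none fell, where 6.64% of all rose. With wild-type Smarcc2 added back 4 fell, where 5.56% of all did, and with KCl at DIV18 5 rose, where 21.5% of all did. The region over Mir381, Mir487b and Mir539 had 0.57, 1.15 and 1.60 (lowest, median, highest) with FHT1015, against 0, 0 and 0.32 with DMSO (1.06 ± 0.10, limma adjusted p = 6.8e-07), but when each summit was ranked on its own its change was 0.17. No DMSO library held this region, so it entered the test through FHT1015 libraries alone, which favours a rise. Mir134, which acts on dendritic spines, and Mir410, whose 3p arm has the same seed as miR-344d-3p, are in this cluster. A region over Mir3072 beside the cluster (chr12:109745744-109754052), held by all 44 libraries, had 3.92 and 4.06 with KCl and 5.60 and 5.25 unstimulated at DIV18 with non-targeting guides, against 1.77 to 2.64 at DIV7. It was higher at DIV18 by 2.47 ± 0.17 (limma adjusted p = 2.6e-05) and fell with KCl at DIV18 by 1.04 ± 0.11 (limma adjusted p = 1.1e-08).

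The region over Mir137, a microRNA of neuronal maturation (chr3:118429300-118437510), was held by all 44 libraries. It had 2.29 to 2.87 at DIV18 with non-targeting guides, against 3.17 to 3.56 at DIV7 (−0.81 ± 0.17, limma adjusted p = 0.0031), and rose after 30 min of FHT1015 in unstimulated neurons to 3.26 and 3.35, against 2.94 and 3.01 with DMSO (0.33 ± 0.11, limma adjusted p = 0.013). The region over Mir125b-1 had 3.27 to 3.73 at DIV18 and 4.41 to 5.11 at DIV7 (−1.18 ± 0.19, limma adjusted p = 0.00097). Both rose with KCl at DIV18, by 0.39 and 0.35.

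Promoters of 331 lncRNA genes, in 393 windows of the RefSeq table, lay in 331 far regions. These were more often held everywhere: 57 (17.2%) by all 44 libraries, against 685 (3.32%) of the other 20629 far regions. All 44 held 12.5% of all regions and 59.3% of gene-end regions. In the Smarcc2 knockout 21 of 248 rose and 20 fell (8.47% and 8.06%), where 4.65% and 19.6% of the other 10100 far regions did. Of all regions 6.64% and 13.3% did, and of gene-end regions 7.2% and 3.0%. With KCl at DIV18, 80 rose and 38 fell (32.3% and 15.3%), against 17.0% and 22.3% of the other far regions. Of all regions 21.5% and 23.1% did, and of gene-end regions 34.7% and 15.8%. With FHT1015 at 30 min in unstimulated neurons 22.4% rose and 48.4% fell, against 14.6% and 55.5%. Of all regions 28.6% and 42.5% did, and of gene-end regions 37.3% and 13.9%. The letters CGCG, on both strands, stood in 11.7% of the 393 windows, against 17.6% of all 11311 lncRNA promoters and 38.5% of all 31396 promoters in the table. TGANTCA stood in 10.9%, against 7.84% of all promoters, TGACGTCA in 0.509%, against 1.83%, CANNTG in 79.9%, against 72.2%, and CCAAT in 38.4%, against 37.3%.

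The promoter of Gm26901 lay in the third of the 6 far regions with the highest median score, at chr1:7396856-7399085, with a median score of 6.65 over the 44 libraries, and it was higher at DIV18 by 0.49 ± 0.15 (limma adjusted p = 0.019). The region at Gm13003, 113 kb from Wnt4, had 1.25, 1.68 and 2.12 (lowest, median, highest) with FHT1015, against 0.31, 0.54 and 1.10 with DMSO, and rose by 1.00 ± 0.13 (limma adjusted p = 8.3e-06). The region at Gm30092, 217 kb from Mmp16, had 2.97, 3.35 and 3.61 with KCl at DIV18, against 4.06, 4.76 and 5.32 unstimulated, and fell by 1.38 ± 0.12 (limma adjusted p = 1.7e-10). The groups did not overlap in either region. The region at Gm29998 had 3.11 to 3.92 at DIV18 with non-targeting guides and 0 in the 4 DIV7 libraries with such guides, but 3.17 to 3.76 in the 8 DMSO libraries at DIV7.

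The highest median scores of all far regions were 17.02 at chr17:39842907-39848916, 443 bp from the ribosomal gene Rn18s-rs5, where many copies share reads and every library had it at rank 1, and 6.82 at chr12:29290048-29291804, between Eipr1 and Myt1l. A region near Ogfrl1 had 6.22. A region 282 kb from Pex2 (chr3:5860258-5860904) had 5.92 and moved in most comparisons. It was at 5.35, 5.88 and 7.05 (lowest, median, highest) with FHT1015, against 4.26, 5.03 and 5.76 with DMSO (0.97 ± 0.18, limma adjusted p = 0.0002). In the Smarcc2 knockout it was at 6.62 to 9.03, against 5.94 to 7.55 with non-targeting guides (1.10 ± 0.31, limma adjusted p = 0.013), and the groups overlapped in both comparisons. It also rose between days, by 2.57, and fell with KCl at DIV18, by 0.89.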

How the data were processed

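ATAC-seq peak lists of 44 libraries were used (22 groups of 2; mm10). Per the submitters' processing notes, the tools of the authors included MACS2, Bowtie2, bedtools, Picard, SAMtools, Trim Galore and FastQC; versions and settings are not given in the sources used here. In the deposited lists, each interval has the fold enrichment (a ratio) over local background and the −log10 p of the authors' peak caller, and lists were called per library. Neither is a count, so read depth is unknown and no counting interval is given. Intervals repeated for several summits were counted once.

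Regions were built from the best 75000 intervals on 19 autosomes, as described above, and placed with the RefSeq table for GRCm38.p6. Percent held has no test. Rank scores were fitted with limma 3.58.1 (R 4.3.3; 1 mean per group, trended variance) per experiment, over regions held by at least 2 of its libraries, with Benjamini-Hochberg adjustment and a threshold of 0.05; the tests were checked on simulated data. The main effects use the mean over times, states or genotypes. DIV18 was set against DIV7 in the 8 non-targeting libraries. Named regions are the 6 with the highest median score and, per comparison, up to 3 called in each direction with the largest change, the same sign when summits are ranked and no overlap of groups (for the interaction, the same sign); the genes nearest to most far regions and the 3 highest regions by early activity genes were also named. Regions over hairpins and lncRNA promoters are those with the sequences shown and the largest changes. The members, lists and comparisons were chosen with earlier results of these data known. No replicate block was used in these fits. Motifs in the regions themselves were not analysed here. One of the 6 regions with the highest median score is not reported here.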

Additional observations from a re-analysis of the deposited data

Results flagged for a closer look

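For 13 named far regions the response to 30 min of KCl differed between FHT1015 and DMSO by the interaction term in limma. The term was above 0 at the regions between Hnf4g and Zfhx4 (3.19), near Nsun3 (3.05) and near Rap2b (3.03). It was also above 0 at those between Dusp6 and Csl (1.77), between Spring1 and Med13l (1.75) and near Prdm2 (1.36). It was below 0 at the regions between Bod1l and Gm46911 (−2.22), near Arl4a (−2.21), near Wac (−2.17), between Tmem161b and Ccnh (−1.69), 441 kb from Nr4a3 (−1.19), near Tmem132e (−1.01) and between Cdh6 and Cdh9 (−0.88). The region near Rap2b had 2.21 and 2.67 with KCl and 0 and 0 without it under FHT1015, and 2.03 and 1.60 with KCl and 2.38 and 2.43 without it in DMSO. At the Prdm2 region FHT1015 gave 0.23 and 0 with KCl and 0 and 0 without, and DMSO 0.29 and 0 with KCl and 1.24 and 1.54 without, so a score of 0 limits how far it could fall under the drug. The named regions were chosen from comparisons that use the same libraries.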

How the results depend on the processing

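Depth limits what these lists show, since reads are not counted, a score of 0 hides any level under the list's end, and most groups hold 2 libraries. Among alternatives that leave out no library, 100 of 128 shares of far regions called stayed within 1.5 times with the same leading direction, as did 25 of 35 differences in percent held within the spread between replicates. Of the values of named regions 311 kept their side of the threshold and 25 lost it; their sign with summits ranked was part of the rule that named most of them. The causes of the changes below were not tested, except that fewer samples entered the leave-outs.

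With the interval number of each library as covariate, the share of far regions called turned to 3.55% for FHT1015 over 16 libraries (main 69.5%), with more rises than falls, and was 0 at 10 min unstimulated (main 30.8%), 7.51% at 30 min unstimulated (main 70.1%), 0.899% at 10 min with KCl (main 3.21%), 7.07% at 30 min with KCl (main 41.9%), 0.852% for 10 min of KCl (main 2.06%), 0.00849% for KCl at DIV7 with non-targeting guides (main 0.425%), 26.0147% for KCl at DIV18 (main 39.5%), 15.6165% for the Smarcc2 knockout (main 24.0%), 0.00966% for S586A (main 0), 0.058% for S586E (main 0.0193%) and 0 for DIV18 against DIV7 (main 75.5%). With each summit ranked on its own it was 4.95% for FHT1015 at 10 min with KCl, 13.3% for 10 min and 30.4% for 30 min of KCl in DMSO, both with falls leading, 0.0425% for KCl at DIV7 and 0.029% for S586E. With the best 75000 intervals alone it was 20.2% and 43.6% for FHT1015 at 10 and 30 min unstimulated, 4.40% for 10 min of KCl with falls leading, 0.051% for KCl at DIV7, 13.6% for the knockout, 9.97% for the wild-type add-back (main 17.1%), 0.0193% for S586A and 0.0773% for S586E. With at least 4 libraries it was 0.754% for KCl at DIV7. The replicate block gave 0.00966% for S586A and 0.116% for S586E and moved no other share by over 1.5 times. Deviations of same-numbered libraries correlated at over 0.1 in 0 of 28 pairs of groups in the drug experiment, 0 of 6 in the Arid2 experiment and 31 of 45 at DIV18 (0.0451 to 0.197). Not every pair passed 0.1 and the labels name no shared batch, so the numbers were not taken as pairing the samples.

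In percent held, the best 30000 intervals gave −0.843 percentage points for FHT1015, −1.54 for the knockout and −4.89 for DIV18 against DIV7. A cover of 50% gave −12.8 for FHT1015, 1.21 for 30 min of KCl in DMSO, −1.79 for KCl at DIV18, −7.53 for the knockout and −1.26 for DIV18 against DIV7. Regions over 200 kb gave −12.8 for the days, and those held by at least 4 libraries −0.629 for 30 min of KCl.

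Without 1 library, the share called ranged over 16.2% to 18.3% and 0.117% to 0.977% for FHT1015 at 10 min unstimulated and with KCl, 0.125% to 0.375% and 8.60% to 12.6% for 10 and 30 min of KCl in DMSO, 0.034% to 0.153% for KCl at DIV7, 13.4% to 23.3% for the knockout, 8.93% to 12.9% for the wild-type add-back and 0 to 0.280% for S586E. For 10 min of KCl the lowest, 0.125%, had falls leading.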
